A study of Homo sapiens with 19 samples.

Results

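The cytosolic ribosomal protein genes encode the protein components of the ribosome outside mitochondria, and were taken by symbol: RPL or RPS followed by digits and an optional A, X, L or AL, together with RPLP0, RPLP1, RPLP2 and RPSA. The rule found 82 genes among the 34825 symbols of each of the 2 expression tables, of which 50 encode proteins of the large (60S) subunit and 32 proteins of the small (40S) subunit. The mRNA of HepG2 cells, a liver cancer cell line, was sequenced after knockdown of a subunit of INO80-C, an ATP-dependent chromatin remodeler. In the first experiment cells received 50 nM of the control siRNA NTG, of siINO80#1 or of siINO80#2, each with 3 libraries (A, B and C). In the second, 1 μM EPZ-6438, which blocks EZH2 and so the methylation of H3K27, or DMSO was added 3 days before 50 nM of NTG or of siMCRS1, an siRNA against the INO80-C subunit MCRS1. It held 2 libraries of DMSO treated NTG, 3 of DMSO treated siMCRS1, 3 of EPZ-6438 treated NTG and 2 of EPZ-6438 treated siMCRS1. All cells were harvested at 72 h. MCRS1 was targeted by 1 siRNA, and no source used here says that the libraries of a group came from separate cultures, so the p-values measure the spread between these libraries, which may be technical.

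A ribosome joins a small subunit, which reads the mRNA, to a large subunit, which forms the peptide bond, and each subunit holds its proteins in nearly equal numbers of copies. The genes are scattered over the chromosomes and are among the most highly expressed in growing cells. Most of their transcripts begin with a C followed by a run of pyrimidines, the 5′ terminal oligopyrimidine (TOP) tract, through which mTORC1 and the protein LARP1 control their translation and stability. Unused ribosomal proteins are degraded, and free RPL5 and RPL11 bind the ubiquitin ligase MDM2.

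The sequence at the annotated start site was searched for the tract. A pyrimidine run that begins a few bases from that site, as in some members, was not counted. RefSeq start regions (GRCh38.p14, 250 bases before to 50 bases after the start) were matched by symbol for 65 of the 82 genes, and 46 of these 65 (70.8%) had a C at the annotated start followed by pyrimidines, 5 or more bases in all, against 5.14% of 27305 symbols. The following 60-base windows, 45 bases before and 15 bases from the start, are written 5′ to 3′ on the strand of the gene, with the tract in capitals. They belong to genes on which the results below turn. RPS25, RPL26, RPL34, and RPS26, which has no tract at this start, had large decreases after an INO80 siRNA. RPS18, RPL35, RPL38 and RPS10 were highest after siMCRS1 in DMSO. RPS27 is printed with its paralog RPS27L, which also has no tract at this start.
RPS25 (chr11:119018329-119018388, minus strand): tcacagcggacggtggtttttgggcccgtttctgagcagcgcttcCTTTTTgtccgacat
RPL26 (chr17:8383179-8383238, minus strand): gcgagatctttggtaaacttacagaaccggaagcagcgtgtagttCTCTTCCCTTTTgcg
RPL34 (chr4:108620531-108620590, plus strand): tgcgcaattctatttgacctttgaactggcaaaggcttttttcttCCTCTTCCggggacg
RPS26 (chr12:56041873-56041932, plus strand): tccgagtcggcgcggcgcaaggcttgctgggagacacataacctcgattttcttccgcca
RPS18 (chr6:33272030-33272089, plus strand): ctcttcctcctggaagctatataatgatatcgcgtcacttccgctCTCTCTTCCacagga
RPL35 (chr9:124861943-124862002, minus strand): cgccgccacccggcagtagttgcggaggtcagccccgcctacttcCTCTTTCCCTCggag
RPL38 (chr17:74203633-74203692, plus strand): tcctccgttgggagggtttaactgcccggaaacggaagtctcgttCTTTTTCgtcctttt
RPS10 (chr6:34426055-34426114, minus strand): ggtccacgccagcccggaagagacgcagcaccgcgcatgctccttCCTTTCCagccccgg
RPS27 (chr1:153990717-153990776, plus strand): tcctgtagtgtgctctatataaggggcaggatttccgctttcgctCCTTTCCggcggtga
RPS27L (chr15:63157463-63157522, minus strand): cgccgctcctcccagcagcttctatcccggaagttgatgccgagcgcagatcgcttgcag

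The letters CCGGAAG, the core recognized by the ETS factor GABPA, occurred on either strand of 23 of the 65 start regions (35.4%), against 12.2% of all symbols, and are in the printed windows of RPL26, RPL34, RPS10 and RPS27L. AAGATGGC, a core recognized by YY1, itself a subunit of INO80-C, was in 6 of 65 (9.23%) against 3.52%. GGGCGG, bound by SP1, was in 60% against 48.3%, TATAAA in 9.23% against 14%, and CACGTG, the E-box bound by MYC, in 6.15% against 8.77%. The median log2 change with siINO80#1 was -0.23 in the 46 members with the tract and -0.21 in the 18 tested without it, and with siINO80#2 it was -0.44 and -0.34. After siMCRS1 it was 0.31 and 0.28 in DMSO, while in EPZ-6438 it was 0.36 and 0.26. Without the paralogs 16 tested members had no tract, at -0.18 with siINO80#1 and -0.34 with siINO80#2. After siMCRS1 these 16 were at 0.32 in DMSO, above the 0.31 with the tract, and at 0.29 in EPZ-6438. These differences were not tested, and the split depends on where the start is annotated. These letter counts describe the annotated windows and do not show that a factor was bound.

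The siRNAs lowered their targets. INO80 had 1278, 1338 and 1175 normalized counts (reads divided by 1 size factor per library) with NTG, 576, 639 and 609 with siINO80#1, and 440, 456 and 483 with siINO80#2, a log2 change of -1.05 (adjusted p = 5.1e-06) and -1.46 (adjusted p = 3.59e-07) in limma. MCRS1 was at 1577 and 1283 in DMSO treated NTG and at 140, 83.7 and 119 in DMSO treated siMCRS1, a change of -3.66 (adjusted p = 5.94e-06), and changed by -3.66 (adjusted p = 3.49e-06) in EPZ-6438. Depth ran from 17093574 to 25369547 reads per library in the first experiment and from 26038505 to 47397233 in the second, and of the 81 members tested, RPL3L, and RPL39L in the second experiment, came near the counting floor of 3 reads. The hepatocyte markers were high in every library, with ALB at 109073 normalized counts or more. With siINO80#2, 5 of the 10 hepatocyte markers fell (28.4% of all genes), and 4 were lower than with siINO80#1 (12.6%). Their median log2 change with siINO80#2 was -0.40, where that of the ribosomal protein genes was -0.39. This closeness rested on library C. Without it 6 markers fell (27.7% of all genes) with a median of -0.43, while the median of the ribosomal protein genes was less negative, as given below. With siINO80#1 1 marker fell (20.8% of all genes), with a median of -0.07. The part of these changes in the results was not tested. The summed level of 4 markers of other cells (COL1A1, COL1A2, PTPRC and HBB) was 73.5 to 233 normalized counts in the first experiment, and in the second 70.0 to 789. COL1A1 made up most of that sum, and HBB was at 0 in all libraries of the drug experiment and at most 3.37 in the other. The sum was higher with siMCRS1 (368 to 789 in DMSO and 602 to 696 in EPZ-6438, against 236 to 286 and 70.0 to 173 with NTG), and its part in the results was not tested. Library C of siINO80#2 stood apart: 17.7% of its reads were from mitochondrial genes, against 7.93 to 9.21% in the other 8 libraries of that experiment.

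The members held 3.31 to 3.41% of all reads in NTG (mean 3.36% ± 0.0490, SD, n = 3), 2.53 to 2.86% with siINO80#1 (2.70% ± 0.168, SD, n = 3), and 2.74, 2.90 and 1.83% with siINO80#2 (2.49% ± 0.578, SD, n = 3). All 6 siINO80 libraries were below all 3 NTG libraries. Leaving mitochondrial reads out of the total gave 3.59 to 3.71% with NTG, 2.76 to 3.11% with siINO80#1 and 3.02, 3.15 and 2.22% with siINO80#2, and the groups again did not overlap. In the drug experiment the share was 3.44 and 3.61% in DMSO treated NTG, 3.81, 3.58 and 3.54% in DMSO treated siMCRS1, 4.44, 3.63 and 3.71% in EPZ-6438 treated NTG, and 4.07 and 4.02% in EPZ-6438 treated siMCRS1. These groups overlapped in each comparison of siRNAs. Within each siRNA, every EPZ-6438 library was above every DMSO library, narrowly with NTG (3.63 against 3.61% at the nearest) and more with siMCRS1 (4.02 against 3.81%). These differences in share were not tested. The highest share of that experiment was in 1 library, EPZ-6438 treated NTG 1. Because these are bulk samples, fewer cells of a kind and less RNA per cell cannot be told apart.

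**Figure D1:**
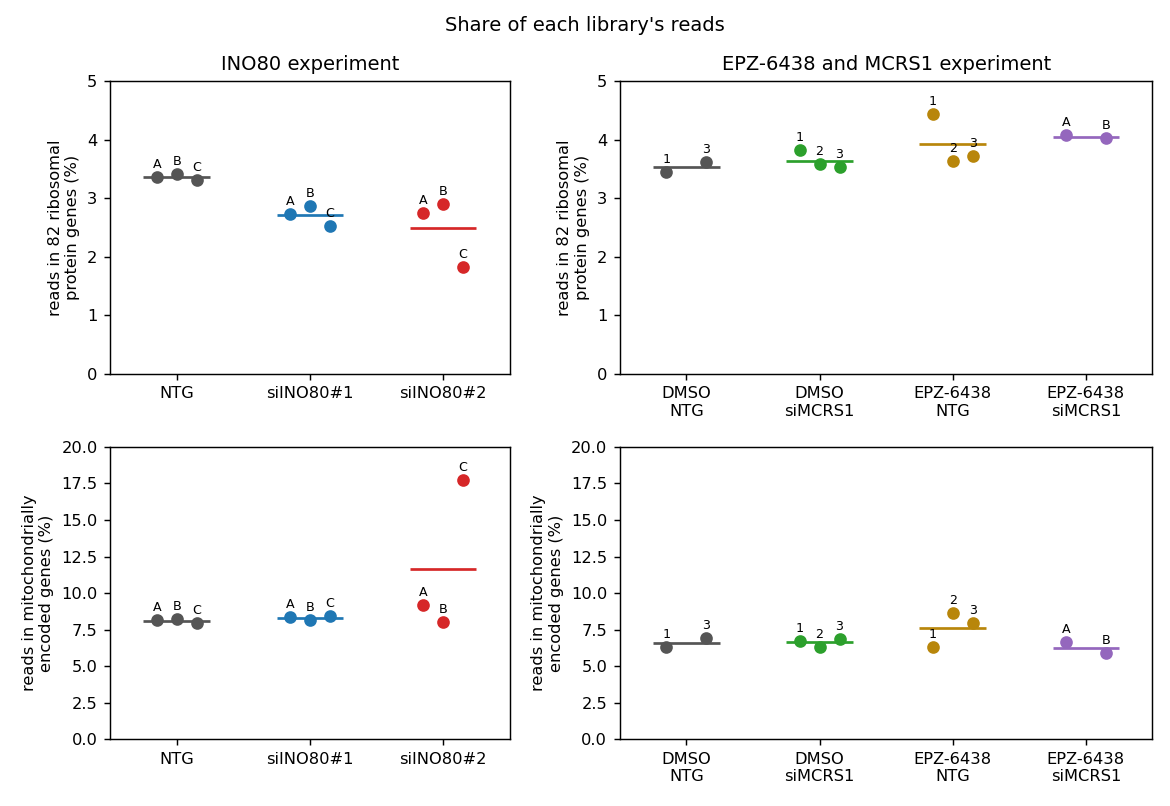
Share of all reads (percent, y axis) that came from the 82 ribosomal protein genes and from mitochondrial genes in each library (x axis) of the INO80 and drug experiments, 1 point per library and a line at the mean of each group. The 6 siINO80 libraries sit between 1.83 and 2.90% for ribosomal protein genes, below the 3.31 to 3.41% of NTG, and library C of siINO80#2 has 17.7% mitochondrial reads.

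Within NTG, the levels per kilobase of the GENCODE canonical transcript spread widely, although the proteins are needed in nearly equal amounts. Among 60 members with a transcript under 1500 bases, paralogs left out, the median was 10048 normalized counts per kb, from 1248 for RPS28 to 22497 for RPS12. RPS2, RPS7, RPS24 and RPS18 followed RPS12 with 20314, 18795, 18608 and 18325. In DMSO treated NTG, RPS28 and RPS12 were again at the ends, with 1985 and 44961 around a median of 18780. Levels per kb of members with longer canonical transcripts, such as RPL37 (7573 bases), depend on a transcript that may not be the one expressed. This can also hold under 1500 bases: the level of RPS28, the lowest, rests on a canonical transcript of 1330 bases. Reads of the 1112 pseudogene symbols of these genes made up 1.47 to 1.87% of the members' reads, and how the counting shared reads between a gene, its pseudogenes and readthrough symbols such as RPL17-C18orf32 is not stated, so those levels are uncertain.

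Both INO80 siRNAs left most ribosomal protein genes lower than NTG. With siINO80#1, 77 of the 81 members tested had a log2 change below 0, with a median of -0.22 where the median of all 14034 genes tested was 0.00. In limma, 17 members fell at a Benjamini-Hochberg adjusted p under 0.05 and 0 rose, against 20.8 and 20.7% of all genes tested, so the share of members that fell was near that of all genes. For 64 members (79.0%) the 3 siINO80#1 libraries all lay below the 3 NTG libraries, against 29.5% of all genes. At an unadjusted p under 0.05, 23 members passed, and at an adjusted one edgeR gave 18 that fell and 0 that rose, DESeq2 22 and 1. The count of 17 depended on the libraries: it was 11 without NTG A, NTG B or siINO80#1 A and 8 without siINO80#1 C. The shares of all genes are not given for these counts or for those of edgeR and DESeq2. Without library C of siINO80#2, which entered this fit only through the estimate of the spread, 55 members fell (25.5% of all genes did).

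With siINO80#2, 75 of the 81 members were below 0, the median was -0.39, 42 members fell (28.4% of all genes) and 3 rose (26.6%), among them RPL39L and RPL23A. For 57 members (70.4%) the 3 siINO80#2 libraries all lay below NTG, against 31.4% of all genes. Library C lay apart from A and B: relative to the NTG mean, the median member was at -0.70 in C, with 76 of 81 below 0, and at -0.21 and -0.16 in A and B. Library C held the lowest value of all 9 libraries for 69 members. That count was not made over all genes, so it is not shown to be particular to the members. Without library C the median was -0.19 and 38 members fell (27.7% of all genes). For siINO80#1 the medians by library were -0.17, -0.18 and -0.30. The members' medians stayed below 0 under the other scalings tried, from -0.31 to -0.21 for siINO80#1 and from -0.51 to -0.35 for siINO80#2. Over both siRNAs, all 6 siINO80 libraries were below all 3 NTG libraries for 53 members, or 65.4%, against 23.2% of all genes.

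**Figure D2:**
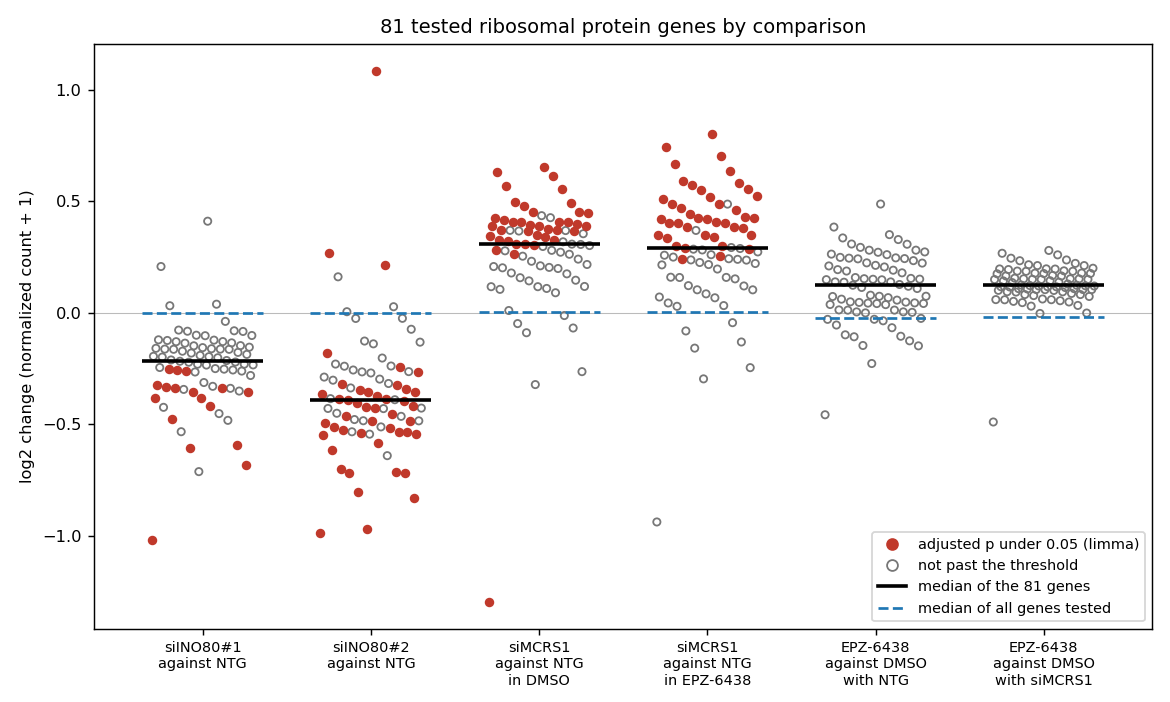
Log2 change of each of the 81 members tested (points, y axis) in 6 comparisons (x axis), with the members' median as a black line and the median of all genes as a dashed blue line, and red where the Benjamini-Hochberg adjusted p of limma was under 0.05. The medians are -0.22 and -0.39 for the INO80 siRNAs and 0.31 and 0.29 for siMCRS1 in DMSO and EPZ-6438, and the siMCRS1 medians are -0.01 and -0.09 with quantile normalization.

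Of 49 tested genes of the 60S subunit, 9 fell with siINO80#1 (20.8% of all genes) and 29 with siINO80#2 (28.4%). RPL26, which lies at the exit of the peptide tunnel, had 8154, 7924 and 7968 with NTG, 5768, 5424 and 4669 with siINO80#1, and 4142, 4285 and 3731 with siINO80#2. Each siRNA lowered it, siINO80#2 further, and no library of one group overlapped another group. Its log2 change was -0.61 (SE 0.09, adjusted p = 0.000315) and -0.99 (SE 0.09, adjusted p = 6.41e-06) in limma, and the siRNAs differed by -0.38 (SE 0.09, adjusted p = 0.0114). RPL17, another protein of the exit tunnel, had 9718, 9325 and 8713 with NTG, 6349, 6233 and 5822 with siINO80#1, and 7792, 7588 and 5908 with siINO80#2. Both groups were below NTG, and the changes were -0.59 (adjusted p = 0.00106) and -0.39 (adjusted p = 0.008) in limma, for a gene whose readthrough symbol shares its sequence. RPL24, which helps join the subunits, was at 4806, 4676 and 4719 with NTG, 4039, 4085 and 3803 with siINO80#1, and 3607, 3325 and 3046 with siINO80#2, with changes of -0.25 (adjusted p = 0.0174) and -0.51 (adjusted p = 0.000152) in limma and no overlap with NTG.

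RPL34, a surface protein of the large subunit, showed how much library C weighed. It had 3442, 3756 and 3719 with NTG, 2782, 2849 and 2224 with siINO80#1, and 2226, 2466 and 1170 with siINO80#2. All siINO80 libraries were below NTG, and C of siINO80#2 was far below A and B. Its change with siINO80#2 was -0.97 (SE 0.23, adjusted p = 0.00404) in limma, and -0.63 (adjusted p = 0.000523) without C, while that with siINO80#1 was -0.48 (adjusted p = 0.113). RPL21 and RPL7A also fell with siINO80#2, with -0.72 (adjusted p = 0.00302) and -0.70 (adjusted p = 0.000956) in limma, and -0.49 (adjusted p = 0.000487) and -0.52 (adjusted p = 9.46e-05) without C. The stalk proteins RPLP0, RPLP1 and RPLP2, which recruit the elongation factors, gave 0 calls with siINO80#1 and 1 with siINO80#2, RPLP0 at -0.32 (adjusted p = 0.042), which was -0.16 (adjusted p = 0.0523) without C. RPLP1 and RPLP2 changed with siINO80#2 by -0.39 (adjusted p = 0.204) and -0.26 (adjusted p = 0.227) in limma. Of the 5S RNP proteins, RPL11 fell with siINO80#2, -0.37 (adjusted p = 0.0144) in limma, and RPL5 was at -0.13 (adjusted p = 0.283).

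A few 60S genes were not lower. RPL23A, a signal recognition particle docking site at the tunnel exit, had 9414, 8361 and 8712 with NTG, 9206, 8666 and 9318 with siINO80#1, and 10597, 10474 and 10798 with siINO80#2. The siINO80#2 libraries were the 3 highest, and RPL23A rose by 0.27 (SE 0.07, adjusted p = 0.00749) in limma with siINO80#2, while its change with siINO80#1 was 0.04 (adjusted p = 0.694). RPL28 and RPL38 were at 0.16 (adjusted p = 0.143) and 0.01 (adjusted p = 0.974) with siINO80#2. Of the 6 exit tunnel proteins, 2 fell with siINO80#1, and 3 fell and 1 rose with siINO80#2. Of all genes, 20.8% fell with siINO80#1, and 28.4% fell and 26.6% rose with siINO80#2.

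Of the 32 genes of the 40S subunit, 8 fell with siINO80#1 (20.8% of all genes) and 13 with siINO80#2 (28.4%). RPS25, a protein of the subunit head used by viral internal ribosome entry sites, had 7064, 6900 and 6680 with NTG, 3611, 3388 and 3185 with siINO80#1, and 6696, 6497 and 7103 with siINO80#2. Only the siINO80#1 libraries were low, at about the same level in all 3, and the siINO80#2 libraries overlapped NTG. Its log2 change was -1.02 (SE 0.07, adjusted p = 2.82e-06) with siINO80#1, the lowest of the 81 members in that comparison, and -0.03 (SE 0.07, adjusted p = 0.782) with siINO80#2, and the siRNAs differed by 1.00 (SE 0.07, adjusted p = 2.49e-05) in limma. RPS26, which contacts the mRNA upstream of the start codon and is mutated in Diamond-Blackfan anemia, had 2436, 2654 and 2451 with NTG, 1616, 1720 and 1375 with siINO80#1, and 2208, 2249 and 1178 with siINO80#2. With siINO80#2 libraries A and B were a little below NTG and C, at 1178, was below every other library. Its changes were -0.68 (adjusted p = 0.0214) with siINO80#1 and -0.48 (adjusted p = 0.0711) with siINO80#2 in limma, the second at -0.17 (adjusted p = 0.135) without C.

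RPS13 and RPS18 were the lowest of the 40S genes with siINO80#2, at -0.83 (adjusted p = 0.0047) and -0.81 (adjusted p = 0.00741) in limma, and -0.54 (adjusted p = 0.000676) and -0.49 (adjusted p = 0.000901) without C. RPS12, the most abundant member per kb in NTG, was at -0.53 (adjusted p = 0.106) and -0.72 (adjusted p = 0.028), the latter -0.35 (adjusted p = 0.016) without C. RPS6, the substrate of S6 kinase, fell with both siRNAs, with log2 changes of -0.26 (adjusted p = 0.0124) and -0.18 (adjusted p = 0.0473) in limma, the second -0.15 (adjusted p = 0.0667) without C. Of 9 genes of the 40S subunit mutated in Diamond-Blackfan anemia, 3 fell with siINO80#1 and 3 with siINO80#2. Of 9 such genes of the 60S subunit, 1 and 6 fell, and of all genes 20.8 and 28.4%.

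RPSA, the laminin receptor, and RPS27A, made as a fusion to ubiquitin, were at -0.32 (adjusted p = 0.0601) and -0.51 (adjusted p = 0.0621) with siINO80#2 and not past the threshold with either siRNA.

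Of the 4 paralogs tested, 2 fell with siINO80#1 (20.8% of all genes), and 1 rose (26.6%) and 1 fell (28.4%) with siINO80#2. RPL39L, a testis-enriched copy of RPL39, had 55.8, 70.8 and 73.0 with NTG, 73.9, 92.2 and 101 with siINO80#1, and 83.0, 112 and 304 with siINO80#2. It rose with siINO80#2 by 1.09 (SE 0.38, adjusted p = 0.032) in limma, but library C alone, at 304, was far above the others, and without it the change was 0.54 (adjusted p = 0.047). RPL3L, which replaces RPL3 in striated muscle, had 21.2, 23.6 and 26.9 with NTG, 15.5, 10.9 and 16.6 with siINO80#1, and 13.5, 19.9 and 12.3 with siINO80#2, and changed by -0.71 (adjusted p = 0.0676) and -0.64 (adjusted p = 0.0792). RPL36AL fell with both siRNAs, with log2 changes of -0.36 (adjusted p = 0.00104) and -0.35 (adjusted p = 0.000642) in limma, with its parent RPL36A at -0.26 (adjusted p = 0.454) and -0.54 (adjusted p = 0.0915). RPS27L, the copy of RPS27, had 1974, 2094 and 2047 with NTG, 1492, 1628 and 1463 with siINO80#1, and 1867, 1982 and 1305 with siINO80#2 and changed by -0.42 (adjusted p = 0.0268) and -0.27 (adjusted p = 0.107) in limma, while RPS27 fell with both siRNAs, at -0.38 (adjusted p = 0.0242) and -0.40 (adjusted p = 0.0151). RPL10L, another testis copy, had 0 reads in all 9 libraries, which allows up to 3 reads in each, and was not tested.

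**Figure D3:**
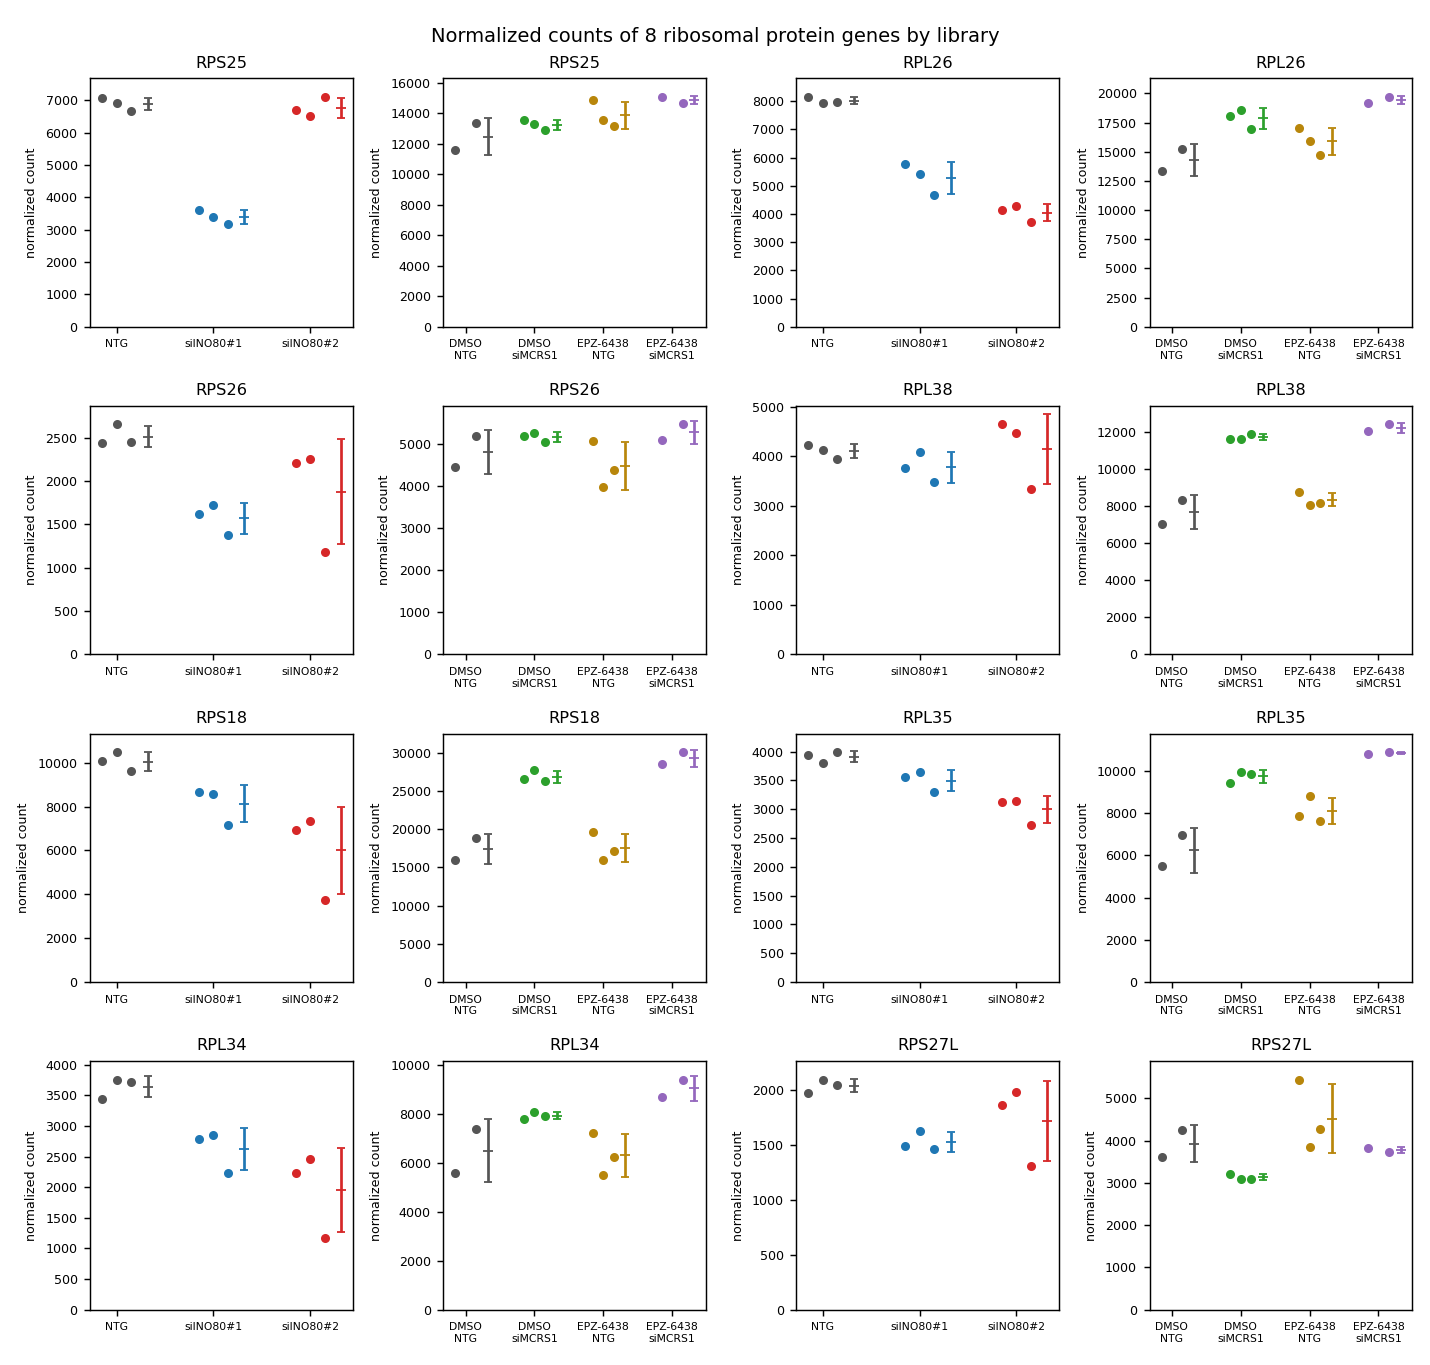
Normalized counts (y axes, each from 0) of 8 members in every library of both experiments (points), with the mean and SD of each group. RPS25 is low only with siINO80#1 (3185 to 3611 against 6680 to 7064 in NTG), RPL26 is lower with each INO80 siRNA, and RPS18 is higher with siMCRS1 (26277 to 30093 against 15961 to 19587 with NTG), a difference tested with the authors' size factors.

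Compared directly, siINO80#2 against siINO80#1 gave 7 calls: RPS25 and RPL23A were higher (9.48% of all genes tested) and others lower (12.6%), among them RPL7A, RPL26, RPL24 and RPS24. The median difference of the 81 members was -0.17, and 15 passed an unadjusted p under 0.05. RPS24 had 10104, 9769 and 9936 with NTG, 9767, 8641 and 9009 with siINO80#1, and 7265, 7002 and 7057 with siINO80#2, a change of -0.12 (adjusted p = 0.176) with siINO80#1 and -0.48 (adjusted p = 0.000142) with siINO80#2, and differed between them by -0.36 (SE 0.07, adjusted p = 0.00438) in limma. The order of the siRNAs rested on library C of siINO80#2. Without it the median difference was 0.06, and 10 members were higher (9.21% of all genes) and 6 lower (12%). Other libraries moved the count too, to 2 without siINO80#1 A, 3 without siINO80#1 B and 14 without siINO80#2 B. With the replicate letter as a block, 13 passed, 2 higher (11.2% of all genes) and 11 lower (14.4%).

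**Figure D4:**
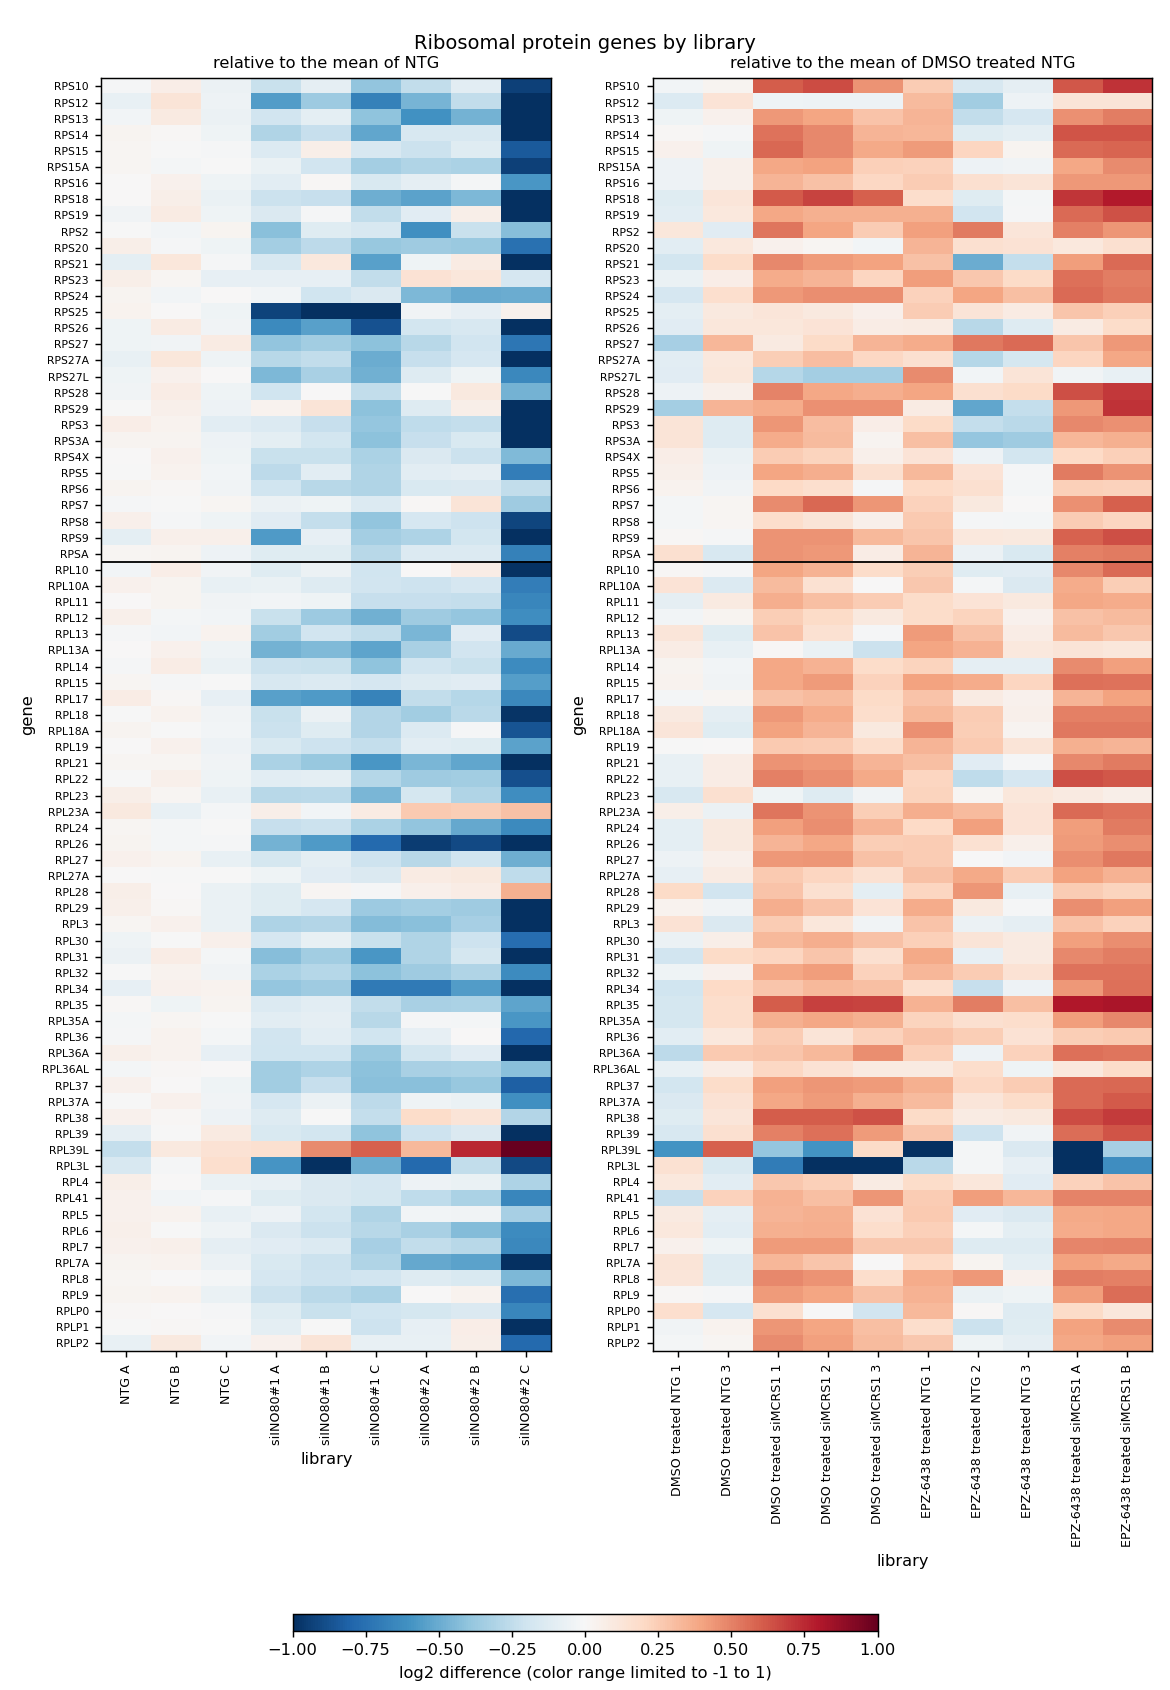
Log2 of each library's value relative to the mean of NTG (INO80 experiment) or of DMSO treated NTG (drug experiment) for 79 of the 81 members tested, 40S genes above the line and 60S genes below it, blue lower and red higher. Most genes are below 0 in the 6 siINO80 libraries, most of all in siINO80#2 C (median -0.70), and above 0 in the 5 siMCRS1 libraries (medians 0.23 to 0.47), the latter with the authors' size factors.

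With siMCRS1 the ribosomal protein genes were higher on the scale of the authors' size factors. In DMSO, 74 of 81 members had a log2 change above 0 with a median of 0.31, 38 rose (23.1% of 14312 genes tested) and 1 fell (24.6%), RPL3L. All 3 siMCRS1 libraries were above both NTG libraries for 57 members, or 70.4%, against 33.3% of all genes. In EPZ-6438, 74 members were above 0 with a median of 0.29, 41 rose (26.8%) and 0 fell (26.9%), with 50 at an unadjusted p under 0.05. There every siMCRS1 library was above every NTG library for 61 members (75.3%), against 34.3% of all genes. On the recovered reads, each with its own scaling, edgeR gave 37 that rose in DMSO (22.4% of all genes) and 37 in EPZ-6438 (25.8%). DESeq2 gave 46 (24.2%) and 49 (27.3%). In DMSO 1 fell by edgeR and 0 by DESeq2, and in EPZ-6438 0 fell by either. Within both treatments at once, 51 members were so separated, against 27.7% of all genes, and 27 members rose in both, against 20.8%.

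These counts depended on the scaling and on single libraries. With each library rescaled to the same total, the median of all genes moved to -0.23 in both treatments, the members' medians were 0.07 and 0.05, and 5 rose (13.2% of all genes) and 3 fell (35.6%) in DMSO, and 4 (16%) and 3 (37.1%) in EPZ-6438. This rescaling shifts all genes of a library alike and leaves the distance between members and other genes as it was. Quantile normalization, which can change that distance, gave the members medians of -0.01 and -0.09, which lay below the median of all genes, with differences of -0.03 and -0.14. Under it 2 members rose (21.7%) and 5 fell (23.4%) in DMSO, and 1 rose (25.5%) and 10 fell (25.4%) in EPZ-6438. Without DMSO treated NTG 1, 9 members (11.1%) rose in DMSO, against 16.1% of all genes, so members then rose less often than all genes. Without siMCRS1 1 or 2, 25 or 24 rose. In EPZ-6438, 10 rose without siMCRS1 B, 25 without siMCRS1 A or NTG 3, 27 without NTG 2 and 53 without NTG 1 (26.4% of all genes). The shares of all genes are not given for the other libraries left out.

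Of the 40S genes, 15 of 32 rose in DMSO after siMCRS1 (23.1% of all genes) and 18 in EPZ-6438 (26.8%). RPS18, a protein of the subunit head, had 15991 and 18817 with NTG and 26601, 27747 and 26277 with siMCRS1 in DMSO. In EPZ-6438 it had 19587, 15961 and 17159 with NTG and 28521 and 30093 with siMCRS1. All 5 siMCRS1 libraries were above all 5 NTG libraries. It rose by 0.63 (SE 0.11, adjusted p = 0.00115) and 0.74 (SE 0.11, adjusted p = 0.000327) in limma, and was one of 2 members, with RPL38, that also rose in both treatments at equal totals, by 0.40 and 0.50. RPS10, a Diamond-Blackfan anemia gene whose readthrough symbol RPS10-NUDT3 shares its sequence, had 12518 and 12950 with NTG and 19331, 20009 and 17353 with siMCRS1 in DMSO, rose by 0.57 (adjusted p = 0.00413) there and by 0.67 (adjusted p = 0.00127) in EPZ-6438 in limma. In limma RPS7, a Diamond-Blackfan anemia gene as well, rose by 0.50 (adjusted p = 0.00307) and 0.42 (adjusted p = 0.0065), and RPS29 by 0.80 (adjusted p = 0.00673) in EPZ-6438, with 0.43 (adjusted p = 0.108) in DMSO. RPS25 and RPS26, low after siINO80#1, were at 0.09 (adjusted p = 0.474) and 0.11 (adjusted p = 0.482) with siMCRS1 in DMSO.

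Of the 60S genes, 23 of 49 rose in DMSO with siMCRS1 (23.1% of all genes) and 23 in EPZ-6438 (26.8%). RPL35, which sits at the tunnel exit, had 5495 and 6985 with NTG and 9413, 9959 and 9879 with siMCRS1 in DMSO. In EPZ-6438 it had 7871, 8828 and 7620 with NTG and 10810 and 10903 with siMCRS1. It rose by 0.65 (SE 0.11, adjusted p = 0.000915) and 0.42 (SE 0.11, adjusted p = 0.00892) in limma, and the groups did not overlap in either treatment. RPL38, which influences the translation of Hox mRNAs, had 7050 and 8334 with NTG and 11661, 11656 and 11936 with siMCRS1 in DMSO. In EPZ-6438 it had 8770, 8102 and 8203 with NTG and 12057 and 12434 with siMCRS1. RPL38 rose by 0.62 (SE 0.10, adjusted p = 0.00047) and 0.55 (SE 0.10, adjusted p = 0.000686) without overlap. RPL22, whose loss is seen in some tumors, rose by 0.70 (adjusted p = 0.00111) in EPZ-6438 in limma. RPLP1 and RPLP2 of the stalk rose in both treatments, RPLP1 by 0.38 (adjusted p = 0.0218) and 0.49 (adjusted p = 0.00494), while RPLP0 was at -0.01 (adjusted p = 0.957) and 0.09 (adjusted p = 0.681). RPL11 rose by 0.31 (adjusted p = 0.0183) and 0.24 (adjusted p = 0.0461), and RPL5 by 0.38 (adjusted p = 0.0347) in EPZ-6438, with 0.28 (adjusted p = 0.116) in DMSO. RPL26, lowered by both INO80 siRNAs, rose by 0.32 (adjusted p = 0.0235) and 0.29 (adjusted p = 0.0319) in limma.

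Some members did not follow. RPL13A, known from the GAIT complex that silences inflammatory mRNAs, had 25457 and 23053 with NTG and 24365, 23179 and 20910 with siMCRS1 in DMSO, with overlapping groups, and changed by -0.09 (adjusted p = 0.559) and -0.16 (adjusted p = 0.276) in limma, and at equal totals it fell, with log2 changes of -0.32 and -0.40. RPS20 and RPL23 were at -0.08 (adjusted p = 0.522) and -0.04 (adjusted p = 0.764) in EPZ-6438. Of the 4 paralogs tested, 3 were below 0 in each treatment and RPL36AL was above 0, and 1, RPL3L in DMSO, passed the threshold. RPS27L had 3614 and 4249 with NTG and 3216, 3100 and 3090 with siMCRS1 in DMSO, with -0.32 (adjusted p = 0.0731) and -0.25 (adjusted p = 0.151), and fell at equal totals, with -0.56 and -0.48. RPL3L had 24.9 and 20 with NTG and 13.4, 4.41 and 10.0 with siMCRS1 in DMSO, the second of these near the counting floor. It fell with a log2 change of -1.30 (SE 0.47, adjusted p = 0.041) there and was at -0.94 (adjusted p = 0.115) in EPZ-6438. RPL39L, at most 51.5 normalized counts in the 10 libraries, was at -0.26 (adjusted p = 0.689) and -0.30 (adjusted p = 0.638) in limma. RPL10L had reads in 6 of the 10 libraries, 3 at most, and was not tested. Without the paralogs the members were 38 higher and 0 lower of 77 in DMSO, and 41 and 0 in EPZ-6438.

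EPZ-6438 itself moved 0 members past the threshold in limma. With NTG, 66 of 81 were above 0 with a median of 0.12, 0 rose (0.321% of all genes) and 0 fell (0.0629%), 18 passed an unadjusted p under 0.05, edgeR called 0 and DESeq2 3 higher. All 3 EPZ-6438 libraries were above both DMSO libraries for 25 members (30.9%), against 16.4%. RPS27 was highest at 0.49 (adjusted p = 0.185), with 7751 and 12270 in DMSO and 12620, 14054 and 14438 in EPZ-6438, and RPL35 followed with 0.38 (adjusted p = 0.135). The medians of the EPZ-6438 treated NTG libraries relative to DMSO treated NTG were 0.27, 0.08 and -0.01, so that library 1 stood above the others.

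With siMCRS1, 78 of 81 members were above 0 in EPZ-6438 against DMSO with a median of 0.12, 0 rose (0.0838%) and 0 fell (0.00699%), with 2 at an unadjusted p under 0.05 and 0 by edgeR and DESeq2. Both EPZ-6438 libraries were above all 3 DMSO libraries for 55 members, or 67.9%, against 11.9% of all genes. For the difference in the effect of siMCRS1 between the treatments, 0 members passed limma's interaction term in either direction (0% of all genes), 0 were at an unadjusted p under 0.05, and edgeR and DESeq2 also called 0. The interaction ranged from -0.34 to 0.38 on the log2 scale over the 81 members, with a median of 0.01.

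The 2 experiments share no library and were compared only through their changes. All 6 siINO80 libraries were below NTG for 53 members and all siMCRS1 libraries above NTG of their treatment for 51, and 32 members were in both sets (60.4% and 62.7%), among them RPL26, RPL34 and RPS18. The 51 are 63.0% of all 81 members, so the shared set held about the share found in the members as a whole. Of the 17 members that fell with siINO80#1, 6 (35.3%) rose with siMCRS1 in DMSO, which is 15.8% of the 38 that rose, among them RPL17, RPL24, RPL26, RPL32 and RPL37. In EPZ-6438 3 of the 17 (17.6%) rose, or 7.32% of 41. Of the 42 that fell with siINO80#2, 20 (47.6%) were among the 38 (52.6%) and 19 (45.2%) among the 41 (46.3%). Of all 81 members, 46.9% rose in DMSO and 50.6% in EPZ-6438. Over the 13534 genes tested in both tables, 3.33% of those that fell with siINO80#1 rose after siMCRS1 in DMSO and 5.21% did in EPZ-6438, and of those that fell with siINO80#2, 4.39% and 8.35%. Across the 81 members the change with siINO80#1 and that with siMCRS1 had a Pearson r of 0.34 in DMSO and one of 0.21 in EPZ-6438, and for siINO80#2 r was -0.08 and -0.25. The points share libraries and depth within each experiment and are not independent. The changes with siMCRS1 in the 2 treatments, which also share no library, had an r of 0.84, or 0.71 without the paralogs.

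**Figure D5:**
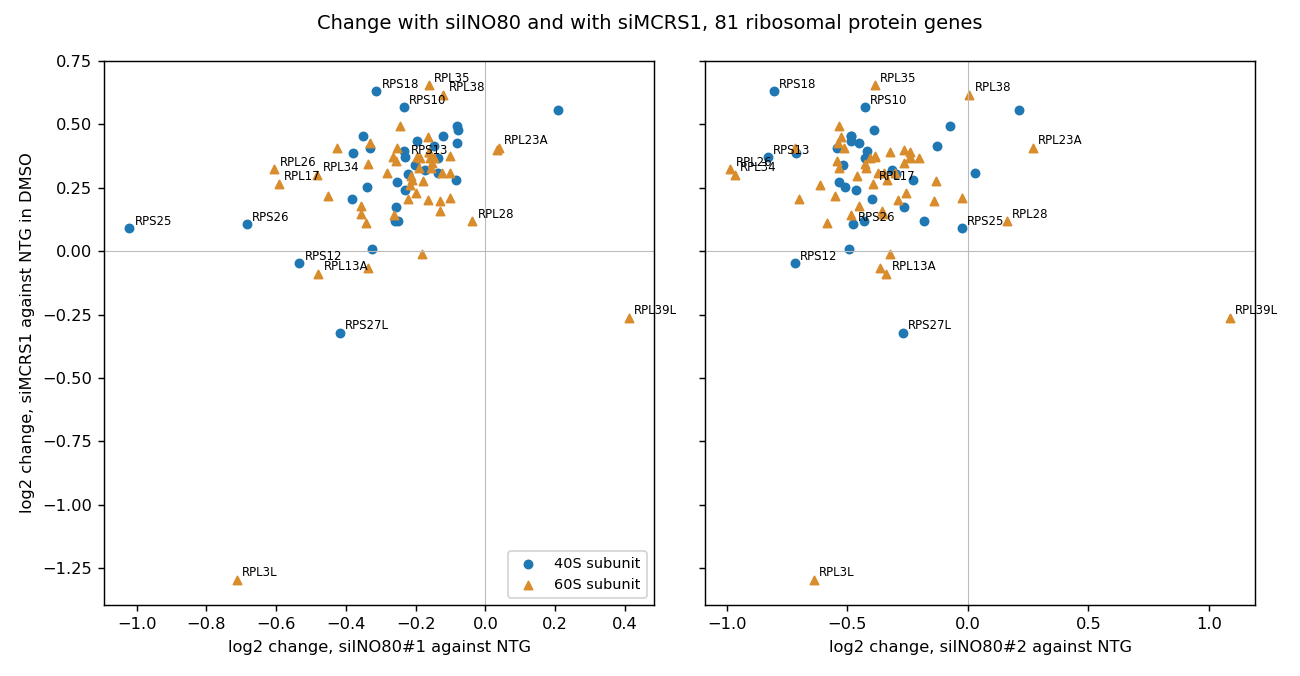
Log2 change of each member with siMCRS1 in DMSO (y axis) against its change with siINO80#1 and with siINO80#2 (x axes, 1 panel each), circles for 40S and triangles for 60S genes. Most points lie at negative changes with the INO80 siRNAs and positive ones with siMCRS1, on the scale of the authors' size factors. For siINO80#1, 72 of 81 have opposite signs, which follows largely from 77 being below 0 with siINO80#1 and 74 above 0 with siMCRS1. Under these size factors the siMCRS1 median is 0.31, against -0.01 with quantile normalization.

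Of 5 ribosomal proteins that carry other symbols, 1 fell with each INO80 siRNA, and 2 rose and 1 fell with siMCRS1 in each treatment. The paralog RPL22L1, whose product takes the place of RPL22, fell, with -0.63 (adjusted p = 0.0298) with siINO80#1 and -1.02 (adjusted p = 0.00167) with siMCRS1 in DMSO in limma, and RPL26L1, the copy of RPL26, fell with siINO80#2, at -1.21 (adjusted p = 2.02e-05). Among 19 other genes with TOP transcripts, mostly elongation and initiation factors, 6 fell and 1 rose with siINO80#1 and 7 fell with siINO80#2. Of all genes, 20.8% fell and 20.7% rose with siINO80#1, and 28.4% fell with siINO80#2. NPM1, a nucleolar chaperone of ribosome assembly, and NACA, the chaperone at the tunnel exit, changed by -0.50 (adjusted p = 0.00291) and -0.43 (adjusted p = 0.00596) with siINO80#1, and EIF3E by -0.60 (adjusted p = 8.16e-05) with siINO80#2. With siMCRS1 6 of the 19 rose in DMSO (23.1% of all genes) and 13 in EPZ-6438 (26.8%). In DMSO they were led by the elongation factor subunits EEF1D at 0.85 (adjusted p = 0.000231) and EEF1B2 at 0.59 (adjusted p = 0.00162) in limma. At equal totals 2 rose in each treatment (13.2 and 16% of all genes).

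Lists of the machinery that makes ribosomes held calls in both directions after the INO80 siRNAs. Of all genes tested, 20.7% rose and 20.8% fell with siINO80#1, and 26.6% and 28.4% with siINO80#2. Of 46 ribosome biogenesis factors, 8 rose and 4 fell with siINO80#1 and 11 rose and 8 fell with siINO80#2. These factors were called no more often than all genes in either direction, with medians of 0.02 and 0.01. WDR43, of the small subunit processome, rose by 0.56 (adjusted p = 0.000863) and 0.67 (adjusted p = 0.000162) in limma. Of 14 genes of RNA polymerase I and its factors, which transcribe rRNA, 3 rose with siINO80#1 and 5 rose and 3 fell with siINO80#2, with POLR1A, the largest subunit, at 1.03 (adjusted p = 2.92e-05) and 1.10 (adjusted p = 9.28e-06). Of 28 translation initiation factors, 4 rose and 8 fell with siINO80#1 and 4 and 9 with siINO80#2, and of 6 chaperones of ribosomal proteins, 1 rose and 3 fell with siINO80#2. The MYC network gave 3 rises of 10 with siINO80#1, with MYC at 0.43 (adjusted p = 0.00298), and 5 and 1 with siINO80#2. Of 9 factors with sites in ribosomal protein promoters 2 rose with siINO80#1 and 4 with siINO80#2, led by SP3 at 1.02 (adjusted p = 1.82e-06) and 0.73 (adjusted p = 6.15e-06). Of 17 genes of mTORC1 and its effectors, 5 rose and 4 fell, and 4 rose and 6 fell, with DEPTOR, an inhibitor of mTOR, at -1.31 (adjusted p = 0.0201) and -1.62 (adjusted p = 0.0047).

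After siMCRS1 16 and 25 biogenesis factors rose and 4 and 3 fell in DMSO and EPZ-6438. At equal totals 4 and 14 rose and 11 and 9 fell. Of all genes, 23.1% rose and 24.6% fell in DMSO, and 26.8% and 26.9% in EPZ-6438. At equal totals 13.2% rose and 35.6% fell in DMSO, and 16% and 37.1% in EPZ-6438. WDR43 was at 0.93 (adjusted p = 4.88e-05) and NOC4L, another processome component, at -1.33 (adjusted p = 0.000622) in DMSO. RNA polymerase I genes gave 5 and 9 rises and 1 fall in each treatment, initiation factors 9 and 13 rises and 3 falls in each, and the chaperones 1 rise and 1 fall in DMSO and 3 rises in EPZ-6438. The promoter factors gave 6 rises of 9 in each treatment, the MYC network 5 rises and 1 fall of 9 in each, and the mTORC1 list 7 rises and 5 falls of 17 in each, DEPTOR and the mTORC1 inhibitor TSC2 being lowest in DMSO at -2.64 (adjusted p = 0.0011) and -1.15 (adjusted p = 0.000614). With EPZ-6438 against DMSO in NTG, 0 genes of these lists passed. Below 0 were 43 of 46 biogenesis factors and 14 of 14 RNA polymerase I genes, where the median of all genes was -0.03. Of the ribosomal protein genes 66 of 81 were above 0. By library 79 were above the DMSO treated NTG mean in EPZ-6438 treated NTG 1, 45 in 2 and 40 in 3. The difference between these lists was not tested.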

How the data were processed

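Members and gene lists were chosen with earlier results of these data known. For each experiment the authors deposited a table of normalized counts, a signal made by dividing the counts of each gene symbol by 1 size factor per library. Their processing notes name kallisto, DESeq2 and GRCh38. The annotation and the strand setting are not given in the sources used here, for libraries made with a stranded Kapa kit. Each library's values were whole multiples of 1 step (100%, tolerance 1e-06), so whole reads were recovered, and 3 reads, the counting floor, equal 2.13 to 4.30 normalized counts. The floor covers counting error only. In all 17 pairs of replicate libraries the difference was larger than sampling noise (chi-square per degree of freedom 9.45 to 121).

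The labels gave the groups. Drug table columns were placed by their names, and only EPZ-6438 treated siMCRS1 carries the letters of the labels. Genes averaging 10 or more normalized counts (14034 and 14312) were tested as log2(value + 1) with limma 3.58.1 in R 4.3.3 (lmFit, then eBayes with a trend, fitting the groups of each experiment together), calling a Benjamini-Hochberg adjusted p below 0.05. Fold changes on this scale understate those of low genes. No test was run across the 2 tables. A few members count in the totals but are not reported by name here. Named are members with the 6 highest and 6 lowest changes per comparison, members with fixed roles, paralogs, the siRNA targets and the 2 highest and lowest genes of each list. RPL24, RPS24, RPL37 and RPL32 are named from the calls counted in the text, after their values were seen. Alternatives were pseudocounts of 0.1 and 5, other filters, 3 other scalings, only the groups compared, no trend, the replicate letter as a block, each library left out, and edgeR 4.0.16 and DESeq2 1.42.0 on the recovered reads. The fit was tested on simulated data. Lengths came from GENCODE v44 canonical transcripts, and start sequences from RefSeq. Calculations outside R used Python 3.11.15, numpy 2.4.6 and pandas 2.3.3, with figures by matplotlib 3.10.9.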

Additional observations from a re-analysis of the deposited data

How the results depend on the processing

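The counts of members past the threshold moved more than their medians. For siINO80#1 the count of 17 became 31 with quantile normalization, all of them lower (21.3% of all genes). It became 53 when the fit held the 2 groups alone, and 8 to 56 with each library left out. For siINO80#2 the median of -0.39 ran from -0.49 to -0.19 with each library left out. The 7 members that differed between siINO80#2 and siINO80#1 became 3 at equal totals, 3 at equal totals over other genes, 4 without a trend, 3 with only the groups compared, 12 with DESeq2 and 2 to 16 with each library left out, and the median ran from -0.26 to 0.0599. For siMCRS1 in DMSO, 39 calls became 8 at equal totals, 7 at equal totals over other genes, 7 with quantile normalization and 9 to 48 with each library left out, with medians of 0.0742, 0.0758 and, reversed, -0.0141 under the 3 scalings. In EPZ-6438, 41 calls became 7, 7, 11 and 10 to 53, with medians of 0.0546, 0.0564 and, reversed, -0.0947. For EPZ-6438 against DMSO with NTG, DESeq2 gave 3 calls and quantile normalization a median of 0.23. The cause of these shifts was not tested. Of the named members, quantile normalization reversed RPL11 (-0.0354), RPL17 (-0.0936) and RPL26 (-0.0440) in DMSO, and RPL11 (-0.19), RPL26 (-0.16), RPL5 (-0.0304) and RPLP2 (-0.0794) in EPZ-6438. Of 780 values of members followed singly under the other settings 640 kept direction and side of the threshold and 133 lost the call, and of 647 with a library left out 530 and 117.

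Deviations from the group means had a mean correlation of 0.10 over 9 pairs of libraries with the same letter (-0.08 to 0.26). Over 18 other pairs it was -0.05, and 8 of 9 libraries correlated best with their own letter. The letters may thus pair the libraries of the INO80 experiment, which the main fit left out. With the letter as a replicate block, 22, 56 and 13 members passed for siINO80#1, siINO80#2 and the siRNAs against each other. Of these 22, 53 and 11 were lower, against 17, 42 and 5 in the main fit. With the block this was 27.2, 65.4 and 13.6% of members, against 22.6, 30 and 14.4% of all genes. For siINO80#1 and for the siRNAs against each other the share was thus near that of all genes. In the drug experiment no paired analysis was possible because most columns of its table are numbered in a way that no label gives. The interaction was not run with only the groups compared. Depth limits statements on RPL3L, RPL10L and, in the drug experiment, RPL39L.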

Other observations

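Library EPZ-6438 treated NTG 1 held 4.44% of its reads in ribosomal protein genes, the highest of the 10 libraries of the drug experiment. Without it 53 in place of 41 members rose with siMCRS1 in EPZ-6438 (26.4 and 26.8% of all genes). In EPZ-6438 treated siMCRS1 A and B, 22 and 41 members reached their highest value of the drug experiment, a count not made over all genes. Library C of siINO80#2 was lowest for 69 of the 81 members tested, which was also not counted over all genes. In it RPL34 was furthest below the NTG mean (-1.64 on the log2 scale) and RPL39L furthest above it (2.19).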
